A study of Rattus norvegicus with 12 samples.

Results

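The liver makes most of the proteins of blood plasma, and a set of them, the positive acute phase proteins, is made in larger amounts during inflammation. Described here are 10 genes of that set in rat liver, Crp, Apcs, Fga, Fgb, Fgg, Hp, Hpx, Orm1, Lbp and Itih3, which were taken by gene symbol out of 16558 genes counted. All 10 were found and passed the filter on low counts. Each is known as a secreted product of hepatocytes. Their transcription is driven by interleukin-6, which acts through the receptor chain gp130 (Il6st) and the transcription factor STAT3. Some positive acute phase genes, but not all, are also driven by interleukin-1, which acts with C/EBP factors. SOCS3 is a STAT3 target that shuts the interleukin-6 signal off again. In the rat, unlike in humans, C-reactive protein circulates at a high level in health.

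RNA was sequenced from livers of Sprague Dawley rats, an outbred stock, in 12 libraries. Arms D and G (3 libraries each) were fed a high-fat diet and treated with didymin, a flavonoid glycoside of citrus fruit, at a low or a high dose, and no label ties either letter to its dose. The model group (3 libraries) had the high-fat diet for 8 weeks, used to bring about fatty liver, and the normal group (3 libraries, titled wt) had saline. Sex, age, the route and duration of didymin and the diet of the normal group were not given in the labels.

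Total counts ran from 12469914 to 15521648 per library, and the smallest count of any of the 10 genes was 387 (Lbp in G.3), a counting error of 5.08%. The 13 genes of the mitochondrial genome took 16.0% of the counts in D.1, 5.62% in D.4 and 5.88% in D.7, 6.07%, 61.0% and 7.88% in G.1, G.3 and G.4, 18.8%, 44.1% and 4.90% in M.5, M.6 and M2.1, and 4.63%, 3.85% and 11.2% in N.1, N.2 and N.3. G.3 and M.6 therefore stood apart before any comparison. The medians over the set are given with and without both for the model over normal and for the arms over the model. Column M2.1 of the model is numbered unlike M.5 and M.6, for a reason that no label gives, and it was kept as a model library. The 16 hepatocyte markers were detected in every group, with summed levels of 27680 to 34240 CPM in arm D, 17460 to 35420 in arm G, 19280 to 32770 in the model and 31720 to 34230 in normal liver. In bulk liver, fewer cells of a type and less RNA per cell cannot be told apart. Since no label says that the libraries of a group are of separate animals, p-values cover only the spread among libraries.

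The promoters of these genes are where the cytokine signal arrives, and those of the 3 fibrinogen chains and of the 2 pentraxins are shown because these genes are compared with each other below. Sequences are RefSeq's, from the rat build GRCr8, which is not tied to the counting of these libraries. Each is printed 5′ to 3′ on the strand of the gene and ends just before the annotated gene. Capitals mark CTGGGAA, the core of the type II interleukin-6 response element, and TTGCNNAA, a C/EBP motif, on either strand.
Fga, chr2:170671919-170672168, plus strand: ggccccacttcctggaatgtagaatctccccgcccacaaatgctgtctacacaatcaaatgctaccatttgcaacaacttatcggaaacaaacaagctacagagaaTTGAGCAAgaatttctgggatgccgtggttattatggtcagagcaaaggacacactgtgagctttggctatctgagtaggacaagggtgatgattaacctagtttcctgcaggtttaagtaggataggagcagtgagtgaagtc
Fgb, chr2:170700876-170701125, minus strand: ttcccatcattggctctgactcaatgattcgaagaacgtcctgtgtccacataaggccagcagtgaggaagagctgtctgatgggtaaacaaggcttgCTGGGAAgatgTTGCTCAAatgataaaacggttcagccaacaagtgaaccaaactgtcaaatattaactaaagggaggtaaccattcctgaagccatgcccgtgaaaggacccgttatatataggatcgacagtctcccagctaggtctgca
Fgg, chr2:170652833-170652928, plus strand: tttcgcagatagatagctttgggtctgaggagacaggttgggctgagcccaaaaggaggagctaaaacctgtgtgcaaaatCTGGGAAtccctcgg
Crp, chr13:87693812-87694061, plus strand: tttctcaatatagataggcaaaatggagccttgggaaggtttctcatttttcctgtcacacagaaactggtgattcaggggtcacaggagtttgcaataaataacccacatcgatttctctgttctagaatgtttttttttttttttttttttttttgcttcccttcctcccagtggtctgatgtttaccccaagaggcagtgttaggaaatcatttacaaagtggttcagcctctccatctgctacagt
Apcs, chr13:87906509-87906758, minus strand: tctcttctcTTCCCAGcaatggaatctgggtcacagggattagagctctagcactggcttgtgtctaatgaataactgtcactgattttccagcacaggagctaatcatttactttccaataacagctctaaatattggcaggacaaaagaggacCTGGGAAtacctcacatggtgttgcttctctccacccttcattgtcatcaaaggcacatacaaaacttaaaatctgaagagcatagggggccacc
RefSeq windows were available for 8 of the 10 genes, and none is shown for Hp or Lbp. In the 250 bases before the listed start, CTGGGAA was found for 3 of the 8 (Fgb, Fgg and Apcs), against 9.56% of the 33469 rat windows. The Fgg window ran past the start of the annotated gene, so only 96 of its bases are printed, with 1 of its 2 matches. TTGCNNAA was found for 4 of the 8 (Fga, Fgb, Hpx and Orm1), against 9.22% of windows. In Fgb both lay side by side, starting 152 and 141 bases before the start. The palindrome TTCNNNGAA was found in Fga and Fgb (7.67% of windows). No match of these motifs overlapped another in the printed windows. The Crp window held none of these 3 strings, which says only that these letters are not in it.

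The pentraxins are ring-shaped proteins that bind damaged cells and microbes. C-reactive protein, Crp, had 2206, 2869 and 3638 normalised CPM in arm D (D.1, D.4, D.7), 3541, 600.0 and 3659 in arm G (G.1, G.3, G.4), 1258, 349.6 and 3910 in the model (M.5, M.6, M2.1) and 6031, 6588 and 2408 in normal liver (N.1, N.2, N.3). CPM are counts relative to the TMM-scaled library size, which is adjusted for composition. Crp was the most variable of the 10 genes, 18.9-fold apart between N.2 and M.6, and its groups overlapped because M2.1 exceeded N.3. Its log2 fold change was −1.45 ± 0.81 (SE) for the model over normal, 0.66 ± 0.80 for arm D over the model and 0.50 ± 0.79 for arm G over the model. Single model libraries decided these values: without M2.1 Crp had −2.64, 1.86 and 1.70 in the same comparisons, and without M.6 it had −0.96, 0.17 and 0.009. Apcs, serum amyloid P component, had 1049, 877 and 919.6 CPM in arm D, 962, 357 and 1114 in arm G, 904, 469 and 447 in the model and 925, 1168 and 1204 in normal liver. Every model library lay below every normal library for Apcs (log2 fold change −0.86 ± 0.42), M.5 by a narrow margin (904 against 925 CPM in N.1). Each arm overlapped the model for Apcs. The 2 pentraxins ranked the model libraries differently: Crp was lowest in M.6 and highest in M2.1, and Apcs was lowest in M2.1 and highest in M.5. Apcs was nearly as low in M.6, at 469 CPM, as in M2.1, at 447 CPM.

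Fibrinogen, the clotting protein, is assembled from an Aα, a Bβ and a γ chain, the products of Fga, Fgb and Fgg, which neighbour each other on chromosome 2 of GRCr8. Fga had 3576, 7305 and 7830 CPM in arm D, 6121, 1218 and 11250 in arm G, 4503, 2015 and 3915 in the model and 9083, 8628 and 4992 in normal liver. Fgb had 4019, 6533 and 6746 CPM in arm D, 5912, 1375 and 9856 in arm G, 5301, 2966 and 3081 in the model and 7382, 6944 and 6406 in normal liver. Fgg had 3287, 5326 and 5916 CPM in arm D, 4647, 704 and 8997 in arm G, 3805, 1393 and 3080 in the model and 6513, 5480 and 4213 in normal liver. For all 3 chains every model library lay below every normal library, G.3 was the lowest and G.4 the highest of the 12 libraries, and both arms overlapped the model. The log2 fold changes of the model over normal were −1.12 ± 0.67 for Fga, −0.87 ± 0.58 for Fgb and −0.97 ± 0.69 for Fgg. Arm D over the model gave 0.84 ± 0.66, 0.61 ± 0.58 and 0.81 ± 0.69 for the same genes, and arm G over the model gave 0.83 ± 0.66, 0.59 ± 0.58 and 0.79 ± 0.69.

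Haptoglobin, Hp, captures free haemoglobin, and hemopexin, Hpx, captures free haem. Hp had 9992, 15030 and 11950 CPM in arm D, 12480, 4530 and 14740 in arm G, 12520, 7655 and 7152 in the model and 11320, 13010 and 13900 in normal liver. Hpx had 6719, 9778 and 10660 CPM in arm D, 7556, 2185 and 13820 in arm G, 7918, 3253 and 5928 in the model and 9673, 8072 and 8288 in normal liver. In Hp the model overlapped normal liver because M.5 lay within the normal range, whereas in Hpx every model library was below every normal one, M.5 by a narrow margin. The log2 fold change of the model over normal was −0.48 ± 0.48 for Hp and −0.61 ± 0.58 for Hpx. It was 0.44 ± 0.48 and 0.67 ± 0.58 in arm D over the model, and 0.22 ± 0.48 and 0.46 ± 0.58 in arm G over the model. Without M.6, Hpx had −0.33 for the model over normal and 0.39 for arm D over the model, and without M.5, Hp had −0.79 and 0.74.

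Orm1 codes for α1-acid glycoprotein, which binds lipids and drugs. It had 639.5, 762 and 414 CPM in arm D, 426, 149.5 and 461 in arm G, 391, 182 and 381 in the model and 472, 558 and 535 in normal liver. All arm D libraries lay above all model libraries, although D.7 did so by little, and all model and all arm G libraries lay below all normal libraries. The log2 fold change was −0.71 ± 0.43 for the model over normal, 0.93 ± 0.43 for arm D over the model and 0.12 ± 0.43 for arm G over the model. Without M.6 the first of these was −0.44 and the last −0.16. Lipopolysaccharide binding protein, Lbp, hands bacterial endotoxin to CD14. It had 168, 346 and 247 CPM in arm D, 199, 43.9 and 257 in arm G, 108, 65.3 and 125 in the model and 176, 129 and 152 in normal liver. D.4, G.4 and D.7 were the 3 highest libraries for Lbp, above all of normal liver, and arm D did not overlap the model. The log2 fold change of Lbp was −0.62 ± 0.51 for the model over normal, 1.35 ± 0.52 for arm D over the model and 0.75 ± 0.51 for arm G over the model. Without M.6 Lbp had −0.40 for the model over normal, and 1.13 for arm D over the model.

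Itih3, a heavy chain of the inter-α-trypsin inhibitors that are bound to hyaluronan, varied least, 2.15-fold between G.4 and M.6. It had 2724, 3703 and 4178 CPM in arm D, 4210, 3463 and 4917 in arm G, 2582, 2286 and 3454 in the model and 4840, 4858 and 4224 in normal liver. Every model library lay below every normal and every arm G library, and every arm D library also lay below every normal one. The log2 fold change was −0.74 ± 0.34 for the model over normal, 0.35 ± 0.34 for arm D over the model and 0.60 ± 0.34 for arm G over the model. G.3 was among the 3 lowest libraries for the other 9 genes and not for Itih3. That place depended on the scaling: with CPM of nuclear counts, Itih3 in G.3 was 6271, the highest of the 12 libraries.

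**Figure D1:**
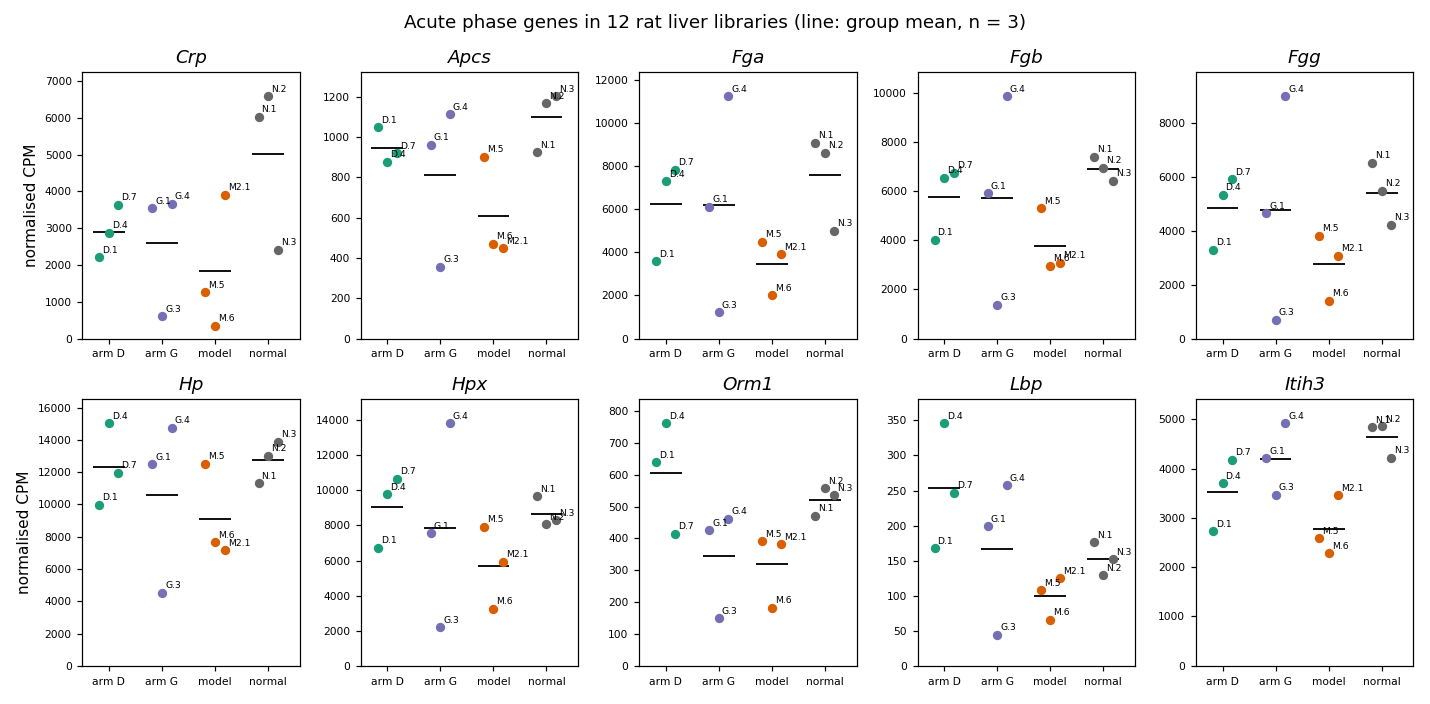
TMM-normalised CPM (y axis, linear, from 0) of each of the 10 genes in every library, with arm D, arm G, the model and normal liver from left to right and a line at each group mean (n = 3). The model mean is the lowest of the 4 for all 10 genes, and G.3 lies far below the other arm G libraries for every gene except Itih3.

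The first question of the design is how liver of the high-fat model differed from normal liver. Set as group means, the model was the lowest of the 4 groups in 10 of 10 genes, normal liver the highest in 7 and arm D in 3 (Hpx, Orm1 and Lbp). No neighbouring group means differed beyond the spread in edgeR's quasi-likelihood test. For the model over normal, 10 of 10 log2 fold changes were negative, against 47.4% of the 12355 genes tested, with a median of −0.80 against 0.03 over all tested genes. In 8 of the 10, all but Crp and Hp, every model library lay below every normal library, as for 5.29% of tested genes. None of the 10 passed the adjusted p of 0.05 (Benjamini and Hochberg, lowest adjusted p = 0.866), and neither did any other gene (0.0%). At an unadjusted p under 0.05 only Itih3 was lower (edgeR), where 1.9% of tested genes were. DESeq2 gave 0 of 10 past the adjusted threshold and 3 unadjusted (5.41% of its genes in either direction, 1.91% lower). With limma-voom it was 0 and 2 (4.3% of tested genes in either direction, 2.34% lower). In edgeR the unadjusted count was 6 without G.3 (Orm1, Fga, Fgb, Fgg, Apcs and Itih3), where 3.5% of tested genes were lower. It was 2 without M2.1 (Crp and Itih3), where 11.3% were, and 0 or 1 without any other single library, where 0.911% to 2.01% were. Itih3 was counted in 2 of the 12 fits without 1 library, those without G.3 and without M2.1. The median was −0.64 without M.6, −1.06 without M.5 and −0.635 without both M.6 and G.3. With CPM of nuclear counts, 6 genes did not overlap (Hpx, Orm1, Fga, Fgb, Fgg and Itih3), while Apcs and Lbp did overlap. The share of all tested genes at that scaling was not counted.

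The second question is what didymin did on the high-fat diet. Both arms were set against the same 3 model libraries, so the comparisons of the arms with the model share them, and the model's values enter the comparison with normal liver too. For arm D over the model, 10 of 10 log2 fold changes were positive (46.7% of tested genes), with a median of 0.66 against −0.04 over all tested genes. Lbp alone had an unadjusted p under 0.05 (edgeR adjusted p = 0.785), where 3.04% of tested genes were higher at that level. Lbp and Orm1 were the 2 genes with every arm D library above every model library, as for 5.93% of tested genes. Apcs joined them with CPM of nuclear counts, and the share of tested genes at that scaling was not counted. None passed the adjusted threshold, nor did any other tested gene (0.0%). DESeq2 gave 0 of 10 adjusted and 2 unadjusted (6.26% of its genes in either direction, 2.85% higher). With limma-voom it was 0 and 1 (5.5% of tested genes in either direction, 3.12% higher). In edgeR the unadjusted count was 0 without M.6 and without D.4, where 1.85% and 1.26% of tested genes were higher. It was 2 without M.5, M2.1 or D.7, where 3.09%, 7.39% and 1.89% were. Without G.3 it was 3 (Orm1, Lbp and Apcs), where 5.26% of tested genes were higher. The median was 1.01 without M.5, 0.47 without M.6 and 0.50 without both M.6 and G.3.

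For arm G over the model, 10 of 10 log2 fold changes were positive (50.0% of tested genes), with a median of 0.55 against 0.00 over all tested genes. That direction rested on G.4: without G.4 the median was 0.01 and Hp, Hpx, Orm1, Fgb and Fgg were negative. Without G.3 the median was 0.95, without M.6 it was 0.36 and without both it was 0.63. None passed the adjusted threshold (lowest adjusted p = 0.9997 in edgeR, 0.0% of tested genes), 0 had an unadjusted p under 0.05, where 1.2% of tested genes were higher, and Itih3 alone did not overlap (2.61%). DESeq2 gave 0 of 10 adjusted and 1 unadjusted (2.7% of its genes in either direction, 1.31% higher). With limma-voom it was 0 and 0 (1.96% of tested genes in either direction, 1.02% higher). Without G.3, 6 genes had an unadjusted p under 0.05 in edgeR (Fga, Fgb, Fgg, Lbp, Apcs and Itih3), where 2.76% of tested genes were higher, and 0 passed the adjusted threshold. Without both M.6 and G.3 it was 3 genes (Fgb, Fgg and Lbp), where 2.18% of tested genes were higher, and again 0 passed. For the mean of both arms over the model, 10 of 10 were positive (46.7%) with a median of 0.57, and Lbp had 1.05 ± 0.46 (edgeR adjusted p = 0.995), the 1 gene under 0.05 unadjusted (2.19% of tested genes were higher at that level). That unadjusted count was 7 without G.3 (4.78% of tested genes) and 0 to 2 without any other library (1.21% to 6.44% of tested genes). The median of the mean of both arms was 0.90 without M.5, 0.36 without M.6 and 0.55 without both M.6 and G.3.

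**Figure D2:**
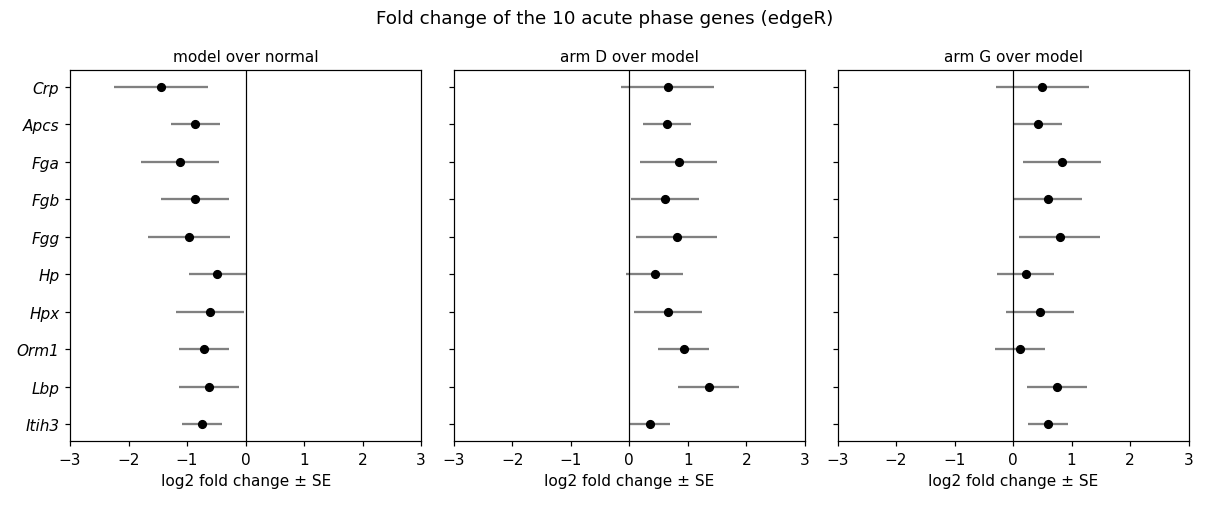
Log2 fold change (x axis) with its standard error from edgeR for each gene (rows), in the model over normal liver, arm D over the model and arm G over the model (n = 3 libraries per group). All 10 points lie left of 0 in the first panel and right of 0 in the other panels, and none passed the adjusted threshold.

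The arms were also set against normal liver and each other. For arm D over normal, 3 genes were positive and 7 negative (51.8% of tested genes were negative), with a median of −0.19 that was 0.03 without D.1. Crp had −0.79 ± 0.80 and Lbp 0.73 ± 0.51 there, and Itih3 alone had every arm D library below every normal one (8.17% of tested genes). For arm G over normal, 1 was positive and 9 negative (48.8%), with a median of −0.27, and Orm1 alone did not overlap (5.05%), at −0.59 ± 0.43. That median was 0.15 without G.3 and −0.86 without G.4. For arm G over arm D, 1 was positive and 9 negative (51.0%), with a median of −0.18 that was 0.26 without G.3 and −0.72 without G.4. Orm1 had the largest difference between arms, −0.81 ± 0.43 (edgeR adjusted p = 0.999). In these 3 comparisons none of the 10 passed the adjusted threshold, nor did any tested gene (0.0% in each), and 0 of the 10 had an unadjusted p under 0.05 in edgeR, DESeq2 or limma-voom, against 6.34%, 6.59% and 3.42% of tested genes in edgeR, 6.08%, 7.11% and 3.99% in DESeq2 and 5.92%, 4.23% and 1.62% in limma-voom.

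Across single libraries most of the 10 genes were low in both M.6 and G.3, but Itih3 was not low in G.3. These were the 2 lowest libraries for 7 of the 10 genes, as for 13.9% of tested genes. With CPM of nuclear counts it was 6 of 10, against 4.18%. The 10 genes together took 2.65% of all nuclear counts in G.3 and 3.20% in M.6, the 2 smallest shares, and 7.54% in G.4, the largest. G.3 was the lowest library for 8 of the genes, and M.6 was among the lowest 3 for all 10. The other libraries spread less: the SD of Crp over libraries was 1.28 log2 units with M.6 and G.3 and 0.70 without, and that of Fgg 1.01 and 0.47.

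The same libraries had the highest mitochondrial shares, and the order held within groups for part of the set. In all 4 groups the library with the highest mitochondrial share (D.1, G.3, M.6 and N.3) was the lowest of its group for 5 genes, Crp, Fga, Fgb, Fgg and Itih3, as for 8.37% of tested genes. With CPM of nuclear counts it was 4 genes, Crp, Fga, Fgg and Hpx, against 3.48%. Fgb and Itih3 thus held this order in all 4 groups only with TMM scaling. With CPM of nuclear counts Fgb broke it in the model alone, at 3849 in M2.1 and 4596 in M.6. Itih3 broke it in the model and in arm G, and was still lowest in D.1 and N.3 within their groups. Apcs was lowest in that library in 1 group and highest in 2, and Hp was lowest in 2 groups. For Crp the 5 libraries above a share of 10%, at 350 to 2408 CPM, did not overlap the 7 libraries below it, at 2869 to 6588 CPM, as for 7.09% of tested genes. The other 9 genes overlapped.

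Ratios of counts within a library do not depend on scaling between libraries. The ratio of Crp to Apcs counts was 0.745 to 2.104 in the 5 libraries above a mitochondrial share of 10% and 3.27 to 8.74 in the 7 below. The ratio of Fga to Fgb counts was 0.679 to 0.890 in the 5 and 1.03 to 1.27 in the 7. Fgg to Fgb was 0.470 in M.6 and 0.512 in G.3, against 0.658 to 0.999 in the other 10 libraries. The chains of 1 protein, and the 2 pentraxins, did not keep 1 ratio across libraries. The 5 libraries come from all 4 groups, and the part of mitochondrial share or RNA quality in the group differences was not tested.

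**Figure D3:**
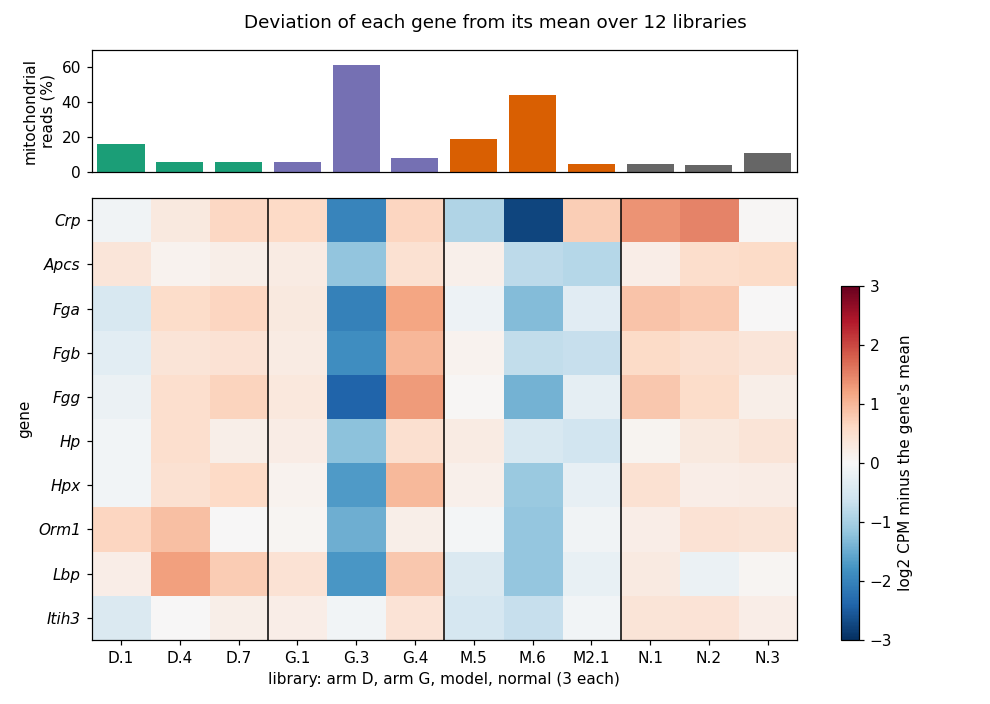
Deviation of each gene from its own mean over the 12 libraries (colour, log2 CPM, blue below and red above), with libraries of arm D, arm G, the model and normal liver from left to right, under bars of each library's mitochondrial share in percent. The deepest blue columns are G.3 and M.6, at mitochondrial shares of 61.0% and 44.1%, and Crp in M.6 lies 2.75 log2 units below its mean.

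Of the cytokines that start the response, interleukin-6 was close to absent and interleukin-1 was detected in every library. Il6 had between 0 and 4 counts per library and Il11 at most 2, and neither passed the filter. Il1b, which codes for interleukin-1β, had 19.6, 17.7 and 18.8 CPM in arm D, 14.5, 34.8 and 11.9 in arm G, 16.3, 12.8 and 5.15 in the model and 9.41, 8.59 and 8.80 in normal liver. Every library of both arms lay above every normal library, while the model overlapped all groups but arm D. The log2 fold change of Il1b was 1.06 ± 0.44 for arm D over normal (edgeR adjusted p = 0.714) and 1.18 ± 0.44 for arm G over normal (edgeR adjusted p = 0.723). Il1a, which codes for interleukin-1α, lay between 9.01 and 26.1 CPM. Osm, oncostatin M, which signals through gp130, had 11 to 18 counts in arm D, 7 to 13 in arm G, 2 to 5 in the model and 1 to 11 in normal liver. Its log2 fold change was 1.89 ± 0.78 for arm D over the model (edgeR adjusted p = 0.786) and 1.73 ± 0.79 for arm G over the model (edgeR adjusted p = 0.9997), at these low counts. Genes outside the set are given with an adjusted p where their unadjusted p was under 0.05. Of 10 tested ligands and receptors, 0 passed the adjusted threshold in any comparison. The medians were −0.67 for the model over normal, 0.28 for arm D over the model and 0.43 for arm G over the model. The receptor chain Il6st had 15, 51.4 and 70 CPM in arm D, 63.2, 12.6 and 36.2 in arm G, 17.2, 19.1 and 85.7 in the model and 146, 144 and 34.2 in normal liver. The 5 libraries above a mitochondrial share of 10% all lay below the 7 others for Il6st, at 12.6 to 34.2 CPM against 36.2 to 145.7 CPM. The same held for Il1r1, the interleukin-1 receptor, at 6.81 to 17.97 against 21.8 to 101.9 CPM. It also held for 7.09% of all tested genes. Il6r, the interleukin-6 receptor, overlapped, with 64.1 CPM in N.3 and 61.6 CPM in D.4.

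Among 17 signalling genes and transcription factors none passed the adjusted threshold either, and their medians were −0.22, 0.02 and 0.17 in the same 3 comparisons. Socs3, the feedback inhibitor, had 1.77, 8.78 and 4.78 CPM in arm D, 4.98, 2.38 and 8.59 in arm G, 1.3, 2.07 and 1.3 in the model and 4.8, 8.59 and 3.88 in normal liver. Every model library lay below every normal library, arm D overlapped the model through D.1 alone, and arm G did not overlap it. The log2 fold change of Socs3 was −1.89 ± 0.61 for the model over normal (edgeR adjusted p = 0.866), 1.72 ± 0.61 for arm D over the model (edgeR adjusted p = 0.783) and 1.79 ± 0.61 for arm G over the model (edgeR adjusted p = 0.9997). Socs3 rested on few counts, 16 to 24 in the model. Unlike Crp, it was low in M2.1, a library with a mitochondrial share of 4.90%. Stat3 itself had 47.8, 113 and 139 CPM in arm D, 98.1, 46.7 and 158 in arm G, 44.6, 58.8 and 93.3 in the model and 185, 127 and 63.1 in normal liver.

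Of the factors that bind these promoters, Cebpb and Cebpd had no unadjusted p under 0.05, with log2 fold changes of 0.02 ± 0.37 and −0.12 ± 0.34 for the model over normal. Onecut1, or HNF6, had −2.17 ± 0.72 for the model over normal (edgeR adjusted p = 0.866) and −1.94 ± 0.75 for arm G over the model (edgeR adjusted p = 0.9997). The normal libraries themselves were far apart for Onecut1, at 48.0, 56.1 and 4.85 CPM in N.1, N.2 and N.3. Cebpa had −0.89 ± 0.36 for arm G over the model (edgeR adjusted p = 0.9997).

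**Figure D4:**
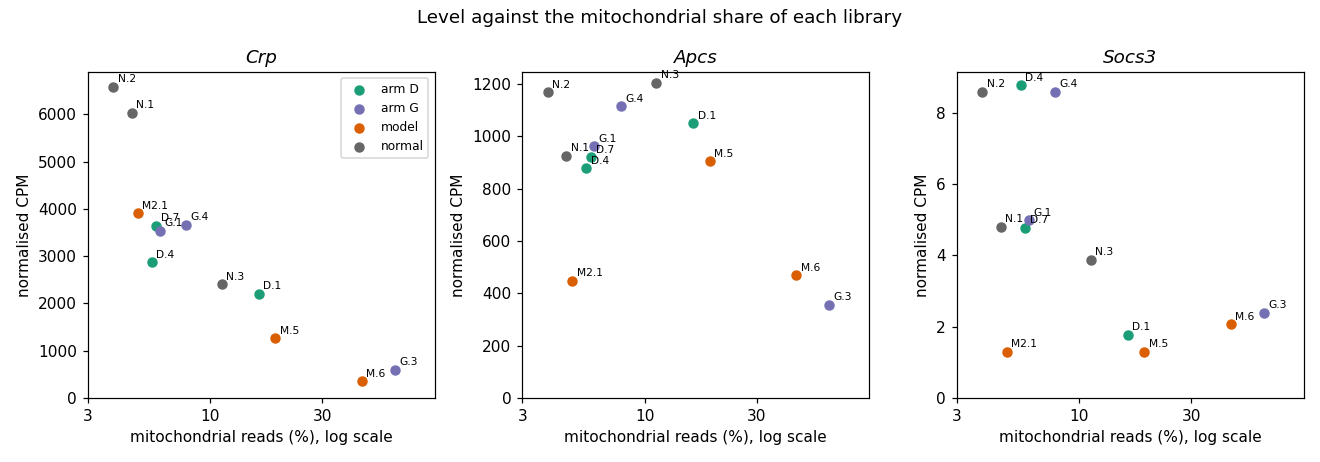
TMM-normalised CPM (y axis, from 0) of Crp, Apcs and Socs3 against the share of mitochondrial counts (x axis, percent, log scale), with 1 point per library coloured by group. The 5 libraries above 10% are the 5 lowest for Crp, while M2.1, at 4.90%, is among the 2 lowest for Apcs and for Socs3.

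Further acute phase proteins were taken from a list of the class. Of 24 further positive acute phase proteins tested, 20 had a negative log2 fold change in the model over normal (median −0.49, 47.4% of tested genes). In arm D over the model 22 were positive (median 0.61, 46.7% of tested genes) and in arm G over the model 20 (median 0.24, 50.0%), and 0 passed the adjusted threshold. Of the 16 hepatocyte markers, 12 were negative in the model over normal (median −0.23). In arms D and G over the model 10 and 12 of the markers were positive (medians 0.21 and 0.15). Kng1, kininogen, had 1012, 2876 and 1721 CPM in arm D, 1727, 832 and 3544 in arm G, 1004, 812 and 804 in the model and 1801, 2127 and 1505 in normal liver. Its log2 fold change was −1.05 ± 0.51 for the model over normal, 1.098 ± 0.51 for arm D over the model (edgeR adjusted p = 0.788) and 1.22 ± 0.51 for arm G over the model (edgeR adjusted p = 0.9997). Mt1m, a metallothionein, had 1.47 ± 0.67 for arm D over the model (edgeR adjusted p = 0.788). Of 13 negative acute phase proteins, which the liver makes less of in inflammation, 10 had a negative log2 fold change in the model over normal too (median −0.22, 47.4% of tested genes). Their medians were 0.16 for arm D and −0.05 for arm G over the model, and 0 passed. Albumin, Alb, had −0.54 ± 0.65, 0.22 ± 0.65 and −0.05 ± 0.65 in these comparisons, and transthyretin, Ttr, −0.15 ± 0.55, 0.16 ± 0.55 and −0.17 ± 0.55. Serpina7, which carries thyroid hormone, had 1.90 ± 0.71 for arm D over the model (edgeR adjusted p = 0.785).

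Kupffer cells, the macrophages of liver, are a known source of interleukin-6 and interleukin-1, and their summed markers were highest in D.4 and D.7 of arm D. All 14 markers had a positive log2 fold change in arm D over the model (median 1.40), 12 of them at an unadjusted p under 0.05, where 3.04% of tested genes were higher, and 0 past the adjusted threshold. D.1 did not follow D.4 and D.7: its summed level of 783.9 CPM lay within the range of the model. For 4 of the 14 markers every arm D library lay above every model library, as for 5.93% of tested genes. The summed level was 783.9 to 2158 CPM in arm D, 555 to 1050 in arm G, 465 to 893 in the model and 765.5 to 999 in normal liver, and no marker was at 0 in any group. Markers of sinusoidal endothelium, which lines the blood channels of liver, summed to 417 to 481 CPM in arm D and 220 to 314 in the model. Of these markers 9 of 9 were positive, 5 at an unadjusted p under 0.05 (3.04% of tested genes were higher at that level) and 0 past the adjusted threshold. Markers of T, NK and B cells summed to 45.3 to 48.9 CPM in arm D and 14.0 to 41.5 in the model, with 7 of 10 positive and 0 at an unadjusted p under 0.05. The part of any of these cells in the levels of Lbp and Orm1 was not tested.

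As a description, genes were ranked by Pearson's r between their log2 CPM and the mean of the 10 genes, each centred. All genes were measured in the same libraries, whose mitochondrial shares ran from 3.85% to 61.0%, and the part of such differences in r was not tested. Over 12 libraries the highest r outside the set were 0.98 for both C4bpa, a complement regulator, and C1r, a complement protease, then 0.96 for each of Rab10, F9 and Tmem176a. Over the 10 libraries other than M.6 and G.3 they were 0.95 for both Kng1 and Socs3, 0.93 for C4bpa, 0.92 for Wdr5 and 0.90 for Sirpa. C4bpa alone stood in both rankings. Within the set, r with the mean over those 10 libraries was 0.94 for both Fga and Fgg and 0.93 for Fgb, and 0.31 for Orm1, although the mean includes the gene itself.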

How the data were processed

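RNA was extracted with Trizol and libraries were prepared with an NEBNext Ultra kit, as the labels' protocols state. The authors deposited 3 tables of raw read counts per gene, each setting 3 libraries of 1 group beside the same 3 model libraries, and these were joined on the gene symbol. The aligner, counter, annotation and use of strand were not given in the labels or file headers. The submitters' processing notes name DESeq2 and mm9, a mouse build, without versions, so no coordinates are tied to the counts. The authors' deposited tables also hold log2 fold changes and p-values per gene, which were not used, and 36 per-sample columns of other values were left out.

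Columns were matched to groups by their letter and not to single samples. Libraries of 1 group always differed by more than sampling noise (chi-square per degree of freedom 23.7 to 962). The test was edgeR 4.0.16 in R 4.3.3. After filterByExpr 12355 genes remained, scaling was by TMM, and a quasi-likelihood model of 4 group means was fitted to all 12 libraries, leaving 8 residual degrees of freedom. Benjamini-Hochberg adjustment covered every tested gene, and 0.05 was the threshold. The step was tested on simulated counts. Alternatives were DESeq2 1.42.0, limma-voom (limma 3.58.1), RLE scaling, no filter, no mitochondrial genes, only the groups compared, and leaving libraries out. Levels are not compared between genes, since gene lengths were not used.

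The 10 genes and the lists were chosen with earlier results of these data known. All 10 are named. From each other list the rule names genes with an adjusted p under 0.05, or else up to 3 with the smallest p, beside key regulators, albumin and transthyretin whatever their p, and the 5 genes most alike in each of 2 sets of libraries. Not all genes that the rule allows are described.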

Additional observations from a re-analysis of the deposited data

Results flagged for a closer look

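In the pool of all 6 didymin libraries, used because groups of 3 are too small for this check, G.3 lay far below the others for 5 of the 10 genes. The gap from G.3 to the next library, divided by the whole range on the log2 CPM scale, was 0.72 for Crp, 0.66 for Hp, 0.626 for Orm1, 0.649 for Lbp and 0.79 for Apcs, each above the critical value of Dixon's test for 6 samples, which Orm1 exceeded narrowly. Chance flags about 1 in 20 groups, and these genes share their libraries. G.3 also had the largest mitochondrial share, 61.0%, and its part in the low values was not tested.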

How the results depend on the processing

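None of the 10 genes passed the adjusted threshold in any of the 7 comparisons under any alternative, and their 190 log2 fold changes under 19 alternatives kept their direction in the model over normal and in arm D over the model. For arm G over the model 7 of 190 turned negative: without G.4 Hp was −0.11, Hpx −0.24, Orm1 −0.16, Fgb −0.058 and Fgg −0.05, and Orm1 was −0.16 without M.6 and −0.062 without G.1. With limma-voom the median was 0.26 for arm G over the model, −0.68 for arm G over normal and −0.53 for arm G over arm D, and the cause was not tested. Over all tested genes, DESeq2 called 38 in the model over normal, 12 in arm D over the model, 5 in arm G over the model, 6 in the mean of arms over the model, 79 in arm D over normal, 52 in arm G over normal and 5 in arm G over arm D, where edgeR called 0. Without the filter edgeR called 3 in the model over normal and 1 in arm G over arm D, with only the groups compared 2 in arm D over normal, and without M.6 and G.3 1 in the model over normal. Leaving out 1 library gave 0 to 6 calls in the model over normal (1 without M.6, 6 without G.3) and 0 to 1 in the mean of arms over the model (D.7), arm G over normal (N.3) and arm G over arm D (G.4). Socs3 kept its direction throughout, from −2.15 to −1.49 for the model over normal, 1.08 to 2.13 for arm D and 1.25 to 2.39 for arm G over the model, as did the other genes outside the set given with a p. The scaling to nuclear counts and the values of genes outside the set were added after seeing the data. No paired analysis was possible because the columns cannot be tied to the replicate numbers in the labels. The biological coefficient of variation was 0.409, with 3 libraries per group.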
